A study of Mus musculus with 6 samples.

Results

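The interferon-stimulated genes described here are 38 genes chosen by symbol, of 24594 genes in the deposited count table. Each symbol matched 1 row, and the members were followed in all 6 libraries. RNA was sequenced from cultured mouse small-intestinal organoids, mini-guts of epithelium grown from single cells for 96 h until they had crypt and villus structures. They then received either NIBR-LTSi at 5 uM, known as an inhibitor of the Hippo kinases LATS1 and LATS2, or the solvent DMSO alone, and were harvested 24 h later. There are 3 libraries of each, numbered as in the labels, and neither group carries a stated genetic change or was given interferon according to the labels. Mouse strain, age and number of source animals are not stated there.

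Interferons are secreted antiviral signals. Type I and type III interferons bind different receptors but share a transcription factor complex that holds STAT2 and IRF9, enters the nucleus and binds a DNA element called the ISRE, while type II interferon acts mainly at an element called GAS. The genes so induced encode sensors of foreign nucleic acid, enzymes that block viral replication, and the regulators that amplify or end the response. In the intestine, epithelial cells are known for responding chiefly to the type III ligands through IFNLR1.

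In organoids given NIBR-LTSi, more of these genes fell than rose. Of 38 members 29 had enough counts to be tested, and 14 of them fell, against 19.2% of all tested genes called lower. Another 3 rose, against 22.8% called higher, and 12 were not called, where 42.0% of all tested genes were called in either direction (edgeR quasi-likelihood test, adjusted p under 0.05). The genes that fell included the transcription factors Irf7, Irf8, Irf9 and Irf1, the oligoadenylate synthetase genes Oas1a and Oasl1, the RNA sensor gene Ifih1, Ifi27, Ifi35, Sp100, and the partners Parp9 and Dtx3l. Those that rose were Ifit2, Ifit1bl1 and Ifi27l2b. The median log2 fold change over the 29 tested members was -0.35, beside 0.02 over all tested genes. The member list was chosen with earlier results of these data known, so these counts are a description of the chosen genes. Among 34 tested further interferon-stimulated genes outside the list, 10 fell and 6 rose. Some of those 6 passed the filter on low counts through the treated group, where they are high.

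The falls were moderate, from 1.16-fold to 2.50-fold, and 3 of the 14 reached 2-fold. In 18 of the 29 tested members every NIBR-LTSi library lay below every DMSO library, and in 3 every library lay above. Over all tested genes these shares were 24.5% and 28.0%. Xaf1 among the 18 and Ifit2 among the 3 passed the filter through the group where each is high. Whether the organoids held fewer cells expressing a gene or less of its RNA per cell cannot be told apart in such bulk samples. Since no label calls the replicates separate cultures, each p-value speaks only of how far these libraries scatter, and that scatter may be technical. In brackets further on, changes in log2 are NIBR-LTSi over DMSO with their standard error.

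**Figure D1:**
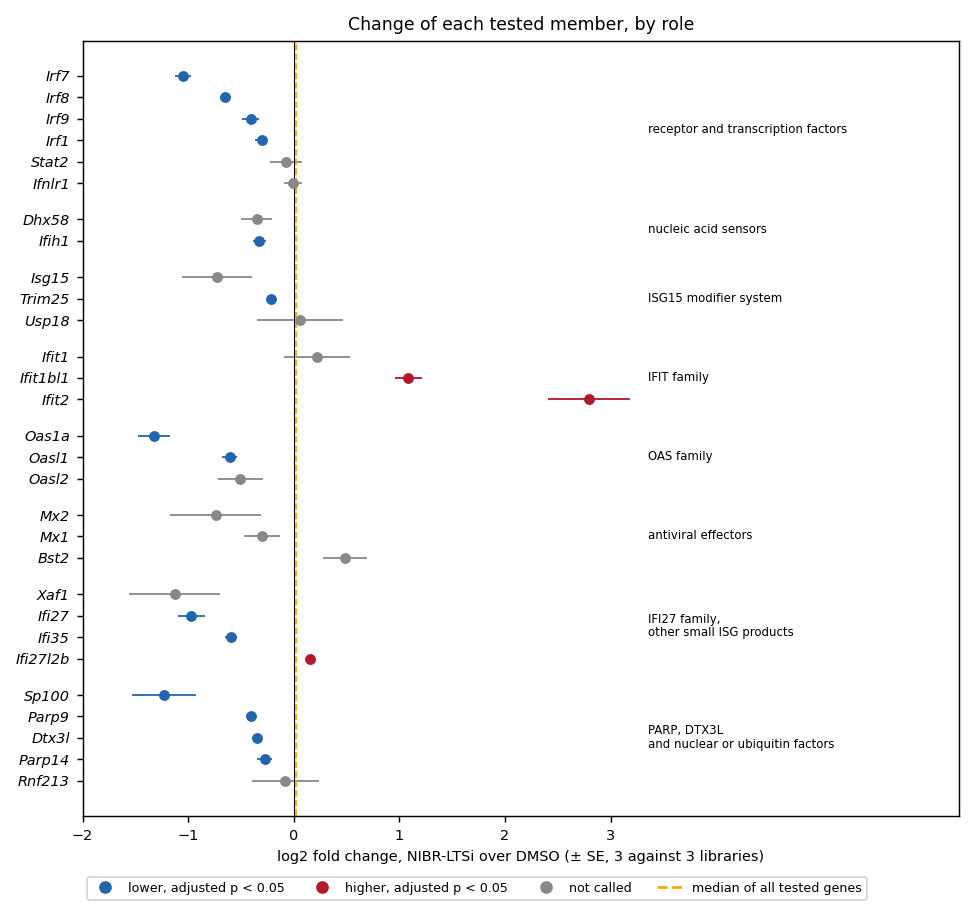
Log2 fold change (NIBR-LTSi over DMSO, x axis) with its standard error for each of the 29 tested members, grouped by role. Blue points fell, red points rose and grey points were not called, and the dashed line is the median of all tested genes (0.02). The points run from -1.32 for Oas1a to 2.80 for Ifit2.

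Total counts ranged from 18395427 to 26767043 per library. The epithelial markers were present: Epcam, Cdh1, Vil1, Krt8, Krt20, Cdx2, Muc2, Lyz1, Chga and Lgr5 were all measured, with summed levels of 6426 to 6509 CPM (normalised counts per 1e6 counts) in DMSO and 6692 to 7212 CPM in NIBR-LTSi. Of these 10 markers 1 rose (Krt8) and 4 fell (Vil1, Lyz1, Chga and Lgr5), beside 22.8% and 19.2% of all tested genes. The part of these markers in the member results was not tested. Leukocyte markers summed to 11.1 to 11.7 CPM in DMSO and 11.9 to 14.3 CPM in NIBR-LTSi, mostly Itgam. Of 15 such markers 9 had no count in any library, among them Cd3e, Itgax and Siglech, and Ptprc stayed at or below 0.0945 CPM. Fibroblast and endothelial markers summed to 2.89 to 4.06 CPM in DMSO and 2.19 to 2.45 CPM in NIBR-LTSi. Dcn, Cdh5 and Kdr were at 0, while Pdgfrb had 2.60, 2.28 and 3.21 CPM in DMSO and 2.01, 1.88 and 1.97 CPM in NIBR-LTSi. Pecam1 had 0.601, 0.611 and 0.614 CPM in DMSO and 0.258, 0.491 and 0.219 CPM in NIBR-LTSi. Neither was called (adjusted p = 0.0771 for Pdgfrb and 0.0833 for Pecam1). Their groups did not overlap, NIBR-LTSi being lower, as in 24.5% of all tested genes. Pecam1 passed the filter through the DMSO group, where it is high. The part of Pdgfrb and Pecam1 in the member results was not tested.

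RNA of the interferon genes looked for was not detectable at this depth. All 10 of them (Ifnb1, Ifna1, Ifna2, Ifna4, Ifna5, Ifne, Ifnk, Ifng, Ifnl2 and Ifnl3) had 0 counts in each library, and other interferon genes were not looked up. At these depths a count of 0 allows up to 0.110 to 0.167 CPM per library, taken as 3 counts and covering counting error only. Several members were also near zero, and the 5 named next were picked with their values seen. Isg15, the ubiquitin-like modifier, was at 0.881, 1.0 and 0.567 CPM in DMSO replicates 1 to 3. Rsad2, the antiviral radical SAM enzyme viperin, had 24 counts in all 6 libraries together, the chemokine gene Cxcl10 had 11, the nucleic acid sensor gene Zbp1 had 16, and Gbp3 had 0.

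Per kilobase of gene width, the DMSO levels of the tested members spanned several orders of magnitude. Ifi27l2b, an IFI27-family gene of mitochondrial and nuclear membrane proteins, stood highest at 319 CPM per kb. It was followed by Ifi35 at 33.0, Trim25 at 21.1, Parp9 at 14.1, Irf1 at 12.2, Dtx3l at 10.7 and Irf8 at 10.2 CPM per kb. At the lower end were Mx2 at 0.156, Usp18 at 0.147, Xaf1 at 0.144 and Ifit2 at 0.0511 CPM per kb. Of 15 members above 10 CPM, 11 fell and 1 rose, where 23.5% of all tested genes at that level fell and 24.7% rose. Of 9 members at 1 to 10 CPM, 3 fell and 1 rose, where 10.5% of all tested genes at that level fell and 21.5% rose. Of 14 members under 1 CPM, 5 were tested, of which 1 rose and 4 were not called, where 7.17% of all tested genes at that level fell and 8.94% rose.

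**Figure D2:**
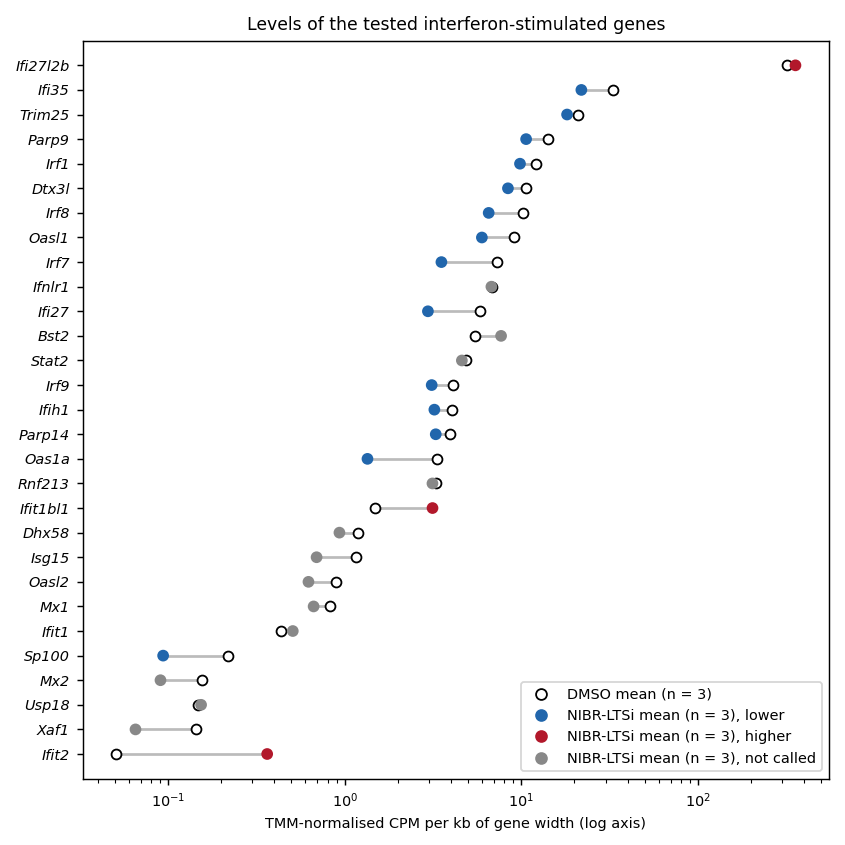
Mean level of each tested member in CPM per kb of gene width (log axis), ordered by its DMSO level. Open circles are DMSO means and filled circles NIBR-LTSi means (n = 3 each), blue for a fall, red for a rise and grey where not called. Filled circles sit left of open ones for most members, and Ifi27l2b stands apart at 319 CPM per kb.

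The interferon elements that define the pathway were looked up in the promoters, and windows are shown from members that fell, rose, were not called or lay near zero. RefSeq promoters of assembly GRCm38.p6 (250 bases before to 50 after the start) were at hand for 28 of the 38 members. The ISRE core, GAAA then NN then GAAA, read on both strands, was present in 14 of the 28, against 3.99% of all 27025 genes with a promoter. A gene with several listed starts was counted once. It was found in 7 of 7 members that were below the filter on low counts, and in 4 of 8 that were tested and not called. The ISRE core was in 2 of 11 that fell and 1 of 2 that rose, beside 3.45% of all tested genes with a promoter. The GAS core TTCNNNGAA, which reads the same on both strands, was in 7 of 28 members and in 9.55% of all genes. By call it was in 4 of 11 that fell, 1 of 2 that rose, 1 of 8 not called and 1 of 7 below the filter. Of all tested genes with a promoter, 8.37% had the GAS core. GGAATG, the core bound by the TEAD partners of YAP, was in 3 of 28 members and in 16.6% of all genes. A match is a description of letters, not a binding site, and a missing match says only that the letters are not in this window. ISRE matches are in capitals in the next lines, each read 5′ to 3′ along the gene's own strand, so TTTC runs are the same core on the other strand.
Isg15, not called, chr4:156200866-156200905, minus strand: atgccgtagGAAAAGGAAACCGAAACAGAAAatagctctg
Oas1a, fell, chr5:120907526-120907557, minus strand: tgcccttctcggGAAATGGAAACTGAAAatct
Ifit1bl1, rose, chr19:34602048-34602087, minus strand: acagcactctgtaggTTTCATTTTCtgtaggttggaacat
Ifit1, not called, chr19:34640789-34640828, plus strand: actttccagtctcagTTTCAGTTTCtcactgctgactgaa
Stat2, not called, chr10:128270261-128270300, plus strand: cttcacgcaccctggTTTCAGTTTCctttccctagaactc
Gbp2, near zero, chr3:142620589-142620628, plus strand: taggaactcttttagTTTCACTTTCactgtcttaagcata
Cxcl10, near zero, chr5:92349078-92349117, minus strand: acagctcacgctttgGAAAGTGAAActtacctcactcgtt
The next lines have the GAS core in capitals for the transcription factor genes Irf1 and Irf8.
Irf1, fell, chr11:53769909-53769947, plus strand: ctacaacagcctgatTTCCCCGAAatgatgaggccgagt
Irf8, fell, chr8:120736172-120736210, plus strand: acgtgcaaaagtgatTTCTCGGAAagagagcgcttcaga
In Isg15 and Oas1a overlapping ISRE cores run together into a longer repeat, which ends 57 bases before the listed start in Isg15 and 5 bases before it in Oas1a. The promoter table lists starts of single transcripts, and those of Oas1a and Ifit1bl1 lie inside the gene spans given further on, so these windows overlap the spans. Isg15 RNA was at a very low level in both groups, and Oas1a fell.

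Among the receptor and transcription factor genes, 4 of 6 fell, against 19.2% of all tested genes. Irf7 (chromosome 7, 141263183 to 141266499), the factor that amplifies type I interferon production, had 22.8, 22.7 and 20.8 CPM in DMSO replicates 1 to 3. In NIBR-LTSi replicates 1 to 3 it had 10.4, 11.2 and 10.4 CPM. The 2 groups stayed apart with little spread inside either, and the log2 fold change was -1.05 ± 0.07 (SE; adjusted p = 5.32e-07).

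Irf8 (chromosome 8, 120736358 to 120756694), best known as a factor of myeloid and lymphoid cells, was the highest of the IRF members in CPM. It had 71.4, 74.4 and 70.8 CPM in DMSO and 48.9, 46.3 and 43.1 CPM in NIBR-LTSi. All 3 treated libraries were lower, by 1.57-fold (-0.65 ± 0.05 in log2, adjusted p = 2.18e-06), with leukocyte markers at the low levels given above. Their part in this result was not tested.

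Irf9 (chromosome 14, 55603985 to 55610030), the DNA-binding subunit of the complex with STAT2, had 23.6, 19.7 and 23.2 CPM in DMSO and 16.3, 17.4 and 16.6 CPM in NIBR-LTSi (-0.41 ± 0.08 in log2, adjusted p = 0.00151). DMSO replicate 2 lay nearest to the treated libraries, still above them. Irf1 (chromosome 11, 53770014 to 53778374), the interferon gamma-responsive factor that also keeps basal antiviral genes on, had 50.3, 49.6 and 45.3 CPM in DMSO and 36.6, 41.2 and 39.5 CPM in NIBR-LTSi. It fell by 0.31 ± 0.06 on the log2 scale (adjusted p = 0.00180).

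Several of these genes overlap others in GENCODE exons, where counts are uncertain because the strand setting is unknown. Irf9 shares 123 exon bases with Rnf31 on the same strand, and Parp14 110 with Gm49730. On opposite strands Irf7 shares 45 with Phrf1, Irf1 135 with Gm17334, Ifi35 290 with Gm11626 and Rnf213 1476 with A930037H05Rik. Dhx58 likewise shares 141 with Dhx58os, Usp18 124 with Gm44148 and Oasl1 38 with Gm13822.

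Stat2 and Ifnlr1 were not called. Stat2, the partner of IRF9, had 30.3, 26.4 and 29.9 CPM in DMSO and 20.9, 30.6 and 30.4 CPM in NIBR-LTSi (-0.07 ± 0.15 in log2, adjusted p = 0.742). NIBR-LTSi replicate 1 stood below the other five libraries, and without it the log2 fold change was 0.07. Ifnlr1, the specific chain of the type III interferon receptor, had 29.6, 29.1 and 27.3 CPM in DMSO and 24.3, 30.6 and 30.1 CPM in NIBR-LTSi. Its log2 fold change was -0.01 ± 0.08 (adjusted p = 0.934), and it turned positive when DMSO replicate 1 (0.01) or NIBR-LTSi replicate 1 (0.07) was left out and when scaled by library totals only (0.03).

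**Figure D3:**
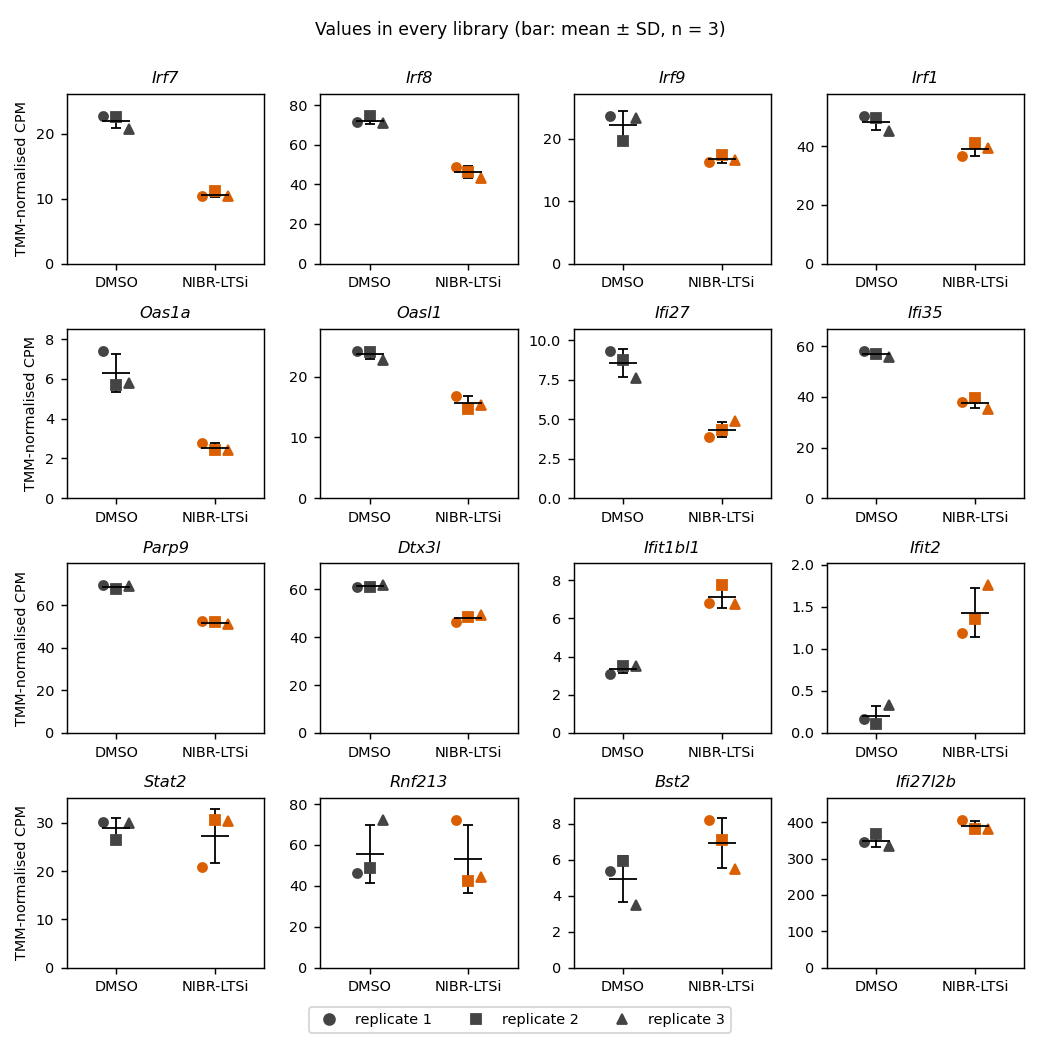
TMM-normalised CPM in every library for 16 members (y axes start at 0), with DMSO in grey and NIBR-LTSi in orange, a marker shape per replicate, and the mean ± SD (n = 3). Irf7, Irf8, Oas1a and Ifi35 separate without overlap, while Stat2 and Rnf213 each have a library apart from its group, such as Stat2 at 20.9 CPM in NIBR-LTSi replicate 1.

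Of the 2 tested nucleic acid sensors, 1 fell and 1 was not called, where 19.2% of all tested genes fell. Ifih1, which encodes the long double-stranded RNA sensor MDA5, had 31.1, 32.3 and 35.4 CPM in DMSO and 26.7, 26.3 and 25.8 CPM in NIBR-LTSi. All treated libraries lay below all controls (-0.33 ± 0.06 in log2, adjusted p = 0.00138). Dhx58, which encodes the related regulator LGP2, had 3.97, 3.67 and 4.01 CPM in DMSO and 3.20, 3.19 and 2.78 CPM in NIBR-LTSi. Its groups did not overlap, yet the test did not call it (-0.35 ± 0.15 in log2, adjusted p = 0.0761). Zbp1, a sensor of left-handed nucleic acid, had 1 to 4 counts per library and was not tested.

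In the ISG15 system, Trim25 was the well-expressed member. This ubiquitin ligase, known for activating RIG-I, had 123, 118 and 123 CPM in DMSO and 103, 103 and 108 CPM in NIBR-LTSi (-0.21 ± 0.04 in log2, adjusted p = 0.00136), the smallest of the falls at 1.16-fold. Isg15 itself had 0.465, 0.450 and 0.548 CPM in NIBR-LTSi, all below the DMSO libraries, and was not called (-0.72 ± 0.33 in log2, adjusted p = 0.0993). Usp18, the protease that removes ISG15 and restrains the receptor, was between 0.245 and 0.568 CPM in all 6 libraries. Its groups overlapped (0.06 ± 0.41 in log2, adjusted p = 0.926), and the sign turned without DMSO replicate 3 (-0.07) or NIBR-LTSi replicate 1 (-0.17) or 3 (-0.05).

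The IFIT family, whose products bind foreign RNA ends and block their translation, had 2 members that rose and 1 that was not called among the 3 tested. Over all tested genes 22.8% rose. Ifit2 (chromosome 19, 34550550 to 34576534) had 0.160, 0.111 and 0.331 CPM in DMSO and 1.19, 1.35 and 1.75 CPM in NIBR-LTSi. Every treated library was above every control, and the log2 fold change of 2.80 ± 0.39 (adjusted p = 1.23e-04) was the largest rise among the members. Its levels remained low: Ifit2 had 117 counts over all 6 libraries and passed the filter through the treated group, where it is high.

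Ifit1bl1 (chromosome 19, 34592888 to 34662981), an Ifit1-like gene of the same cluster, had 3.08, 3.50 and 3.50 CPM in DMSO and 6.81, 7.73 and 6.76 CPM in NIBR-LTSi. It rose 2.12-fold without overlap between the groups (1.08 ± 0.13 in log2, adjusted p = 2.84e-05). Ifit1 had 1.12, 0.833 and 1.51 CPM in DMSO and 1.39, 0.941 and 1.72 CPM in NIBR-LTSi, with overlapping groups (0.22 ± 0.31 in log2, adjusted p = 0.604). The sign turned when NIBR-LTSi replicate 3 was left out (-0.01). Ifit3 had 3 to 18 counts per library and was not tested.

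The neighbours of these genes were looked at by position. Ifit1bl2, which lies inside the RefSeq span of Ifit1bl1 and is the most highly counted gene of the cluster, had 30.5, 34.3 and 34.8 CPM in DMSO and 92.6, 89.2 and 90.3 CPM in NIBR-LTSi. It rose 2.74-fold (1.45 ± 0.06 in log2, adjusted p = 4.13e-09). Sequence shared between the copies bears on how reads could be split: of 50-base windows in GENCODE transcripts, 6.36% of those of Ifit1bl1 also occur in Ifit1bl2, and 0% of those of Ifit2 occur in any other gene. In turn, 4.22% of the windows of Ifit1bl2 occur in Ifit1bl1, and Ifit1bl2 had 8557 counts against 720 for Ifit1bl1. The split of reads between Ifit1bl1 and Ifit1bl2 is therefore uncertain, and its part in the Ifit1bl1 rise was not tested. For Ifit3 51.2% of windows occur in Ifit3b, so counts of that pair are uncertain too.

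The OAS genes encode enzymes that make 2-5A, the messenger that activates RNase L, or catalytically inactive relatives of them. Oas1a (chromosome 5, 120896256 to 120907544) had 7.41, 5.67 and 5.81 CPM in DMSO and 2.79, 2.41 and 2.41 CPM in NIBR-LTSi. The groups were well apart, and this was the largest fall among the members, 2.50-fold (-1.32 ± 0.15 in log2, adjusted p = 2.91e-05).

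Oasl1 (chromosome 5, 114923143 to 114937911), known in mouse for restraining translation of Irf7 messenger RNA, had 24.2, 24.1 and 22.7 CPM in DMSO and 16.9, 14.6 and 15.3 CPM in NIBR-LTSi. It fell without overlap, by 0.61 ± 0.07 on the log2 scale (adjusted p = 3.94e-05). Oasl2 had 3.16, 4.44 and 2.83 CPM in DMSO and 2.17, 2.17 and 2.92 CPM in NIBR-LTSi, with NIBR-LTSi replicate 3 reaching into the control range (-0.51 ± 0.21 in log2, adjusted p = 0.0762). It was called when replicate 3 of DMSO (adjusted p = 0.0423) or of NIBR-LTSi (0.0420) was left out. Oas2 and Oas3 had 20 and 53 counts in all and were not tested.

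The OAS cluster lies on chromosome 5, and its tested genes had unequal values. Oas1g, next to Oas1a, had 3.08, 4.89 and 3.31 CPM in DMSO and 0.826, 0.736 and 0.731 CPM in NIBR-LTSi, and fell 4.88-fold (-2.29 ± 0.24 in log2, adjusted p = 1.57e-05). Oas1c and Oas1b, at 1.53 and 1.07 CPM in DMSO, had log2 fold changes of -0.01 ± 0.23 and -0.07 ± 0.42 and were not called. That Oas1g changed more than Oas1b or Oas1c was not tested. Oas1a and Oas1g share 57.6% of the 50-base windows of Oas1a, so the split of reads between this pair is uncertain.

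**Figure D4:**
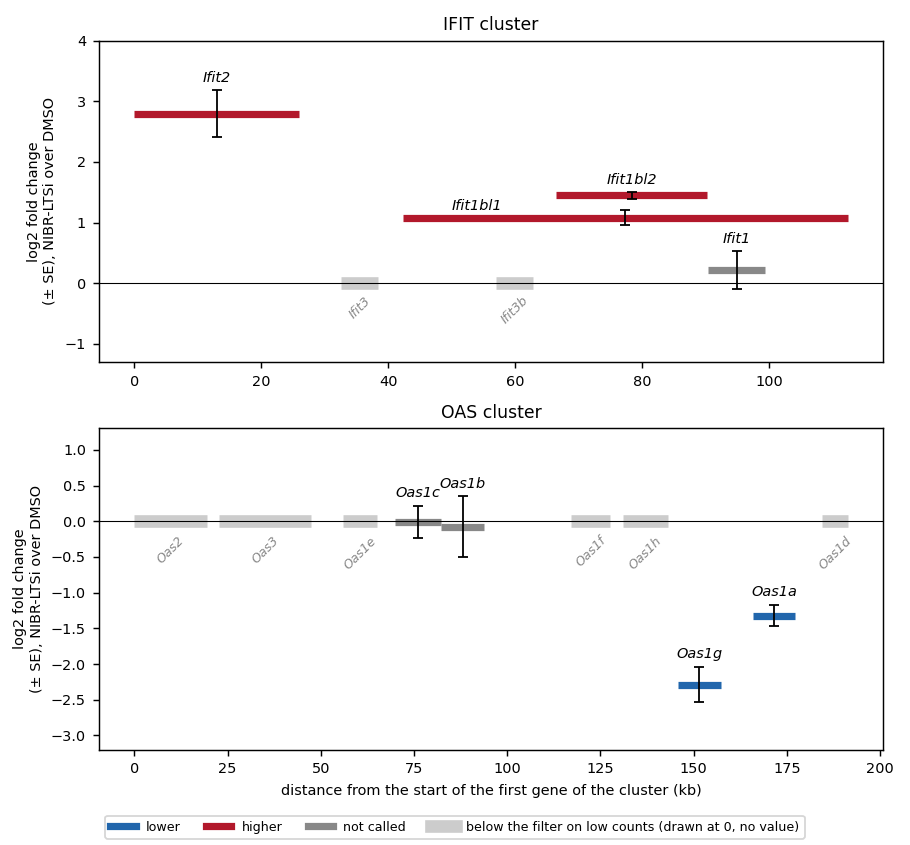
Log2 fold change (± SE) of the genes in the IFIT and OAS clusters against distance in kb from the start of the first gene. Bars span each gene, red for a rise, blue for a fall and grey for not called, and pale bars at 0 are genes below the filter with no value. Ifit2 (2.80), Ifit1bl2 (1.45) and Ifit1bl1 (1.08) lie above 0, and Oas1g (-2.29) and Oas1a (-1.32) below.

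Of the remaining antiviral effectors, Mx1, Mx2 and Bst2 were not called, and Rsad2 was below the filter and not tested. Mx1, whose product traps viral ribonucleoproteins, had 3.08, 3.28 and 3.02 CPM in DMSO and 2.27, 2.45 and 2.85 CPM in NIBR-LTSi (-0.30 ± 0.17 in log2, adjusted p = 0.181). RefSeq lists both Mx1 and Mx2 of the reference strain as transcribed pseudogenes. Mx2 was between 0.258 and 0.722 CPM over all libraries (adjusted p = 0.195). Bst2, which encodes the virion-holding membrane protein tetherin, had 5.37, 5.94 and 3.50 CPM in DMSO and 8.21, 7.12 and 5.48 CPM in NIBR-LTSi. Its groups overlapped (0.48 ± 0.21 in log2, adjusted p = 0.0979), and it was called as higher without NIBR-LTSi replicate 3 (adjusted p = 0.0365). Of the guanylate-binding proteins, which attack pathogen vacuoles, Gbp7 had 33 counts, Gbp2 had 1 and Gbp3 had 0, so none could be tested.

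Ifi27 and Ifi27l2b, neighbours on chromosome 12, moved in opposite directions. Ifi27 had 9.33, 8.72 and 7.60 CPM in DMSO and 3.87, 4.30 and 4.86 CPM in NIBR-LTSi, a fall of 1.96-fold with no overlap (-0.97 ± 0.13 in log2, adjusted p = 7.44e-05). Ifi27l2b had 345, 369 and 334 CPM in DMSO and 406, 382 and 380 CPM in NIBR-LTSi. It rose 1.12-fold (0.16 ± 0.04 in log2, adjusted p = 0.0132). Leaving out 1 library ended this call in 3 cases: DMSO replicate 1 (adjusted p = 0.0634), NIBR-LTSi replicate 1 (0.0567) and NIBR-LTSi replicate 2 (0.0527). Of their 50-base windows 0% of those of Ifi27 and 0.211% of those of Ifi27l2b occur in another gene.

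Ifi35, whose product pairs with NMI in the cytosol, had 58.2, 57.1 and 55.7 CPM in DMSO and 38.1, 39.8 and 35.4 CPM in NIBR-LTSi. The groups stayed far apart, with a fall of 1.51-fold (-0.60 ± 0.06 in log2, adjusted p = 4.86e-06). Xaf1, a pro-apoptotic partner of XIAP, had 0.801, 0.611 and 0.614 CPM in DMSO and 0.206, 0.532 and 0.183 CPM in NIBR-LTSi. The treated libraries were lower but scattered, and the test gave a log2 fold change of -1.13 ± 0.43 (adjusted p = 0.0546). It was called in limma-voom (0.0379), with DESeq2 size factors (0.0490) and when NIBR-LTSi replicate 2 was left out (0.0140). Xaf1 had 66 counts over all 6 libraries and passed the filter through the DMSO group, where it is high. These calls share that limit.

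Parp9, Dtx3l and Parp14, which lie close together on chromosome 16, each fell. Parp9, an ADP-ribosyltransferase, had 69.3, 67.5 and 69.2 CPM in DMSO and 52.7, 52.0 and 51.0 CPM in NIBR-LTSi, and its ubiquitin ligase partner Dtx3l had 61.0, 61.1 and 61.6 CPM and then 46.6, 48.6 and 49.1 CPM. These were among the tightest replicates of the set, with log2 fold changes of -0.41 ± 0.04 (adjusted p = 1.74e-05) for Parp9 and -0.35 ± 0.05 (adjusted p = 8.20e-05) for Dtx3l. The genes lie head to head on chromosome 16 and share 458 exon bases on opposite strands, where reads cannot be assigned without the strand setting. Parp14, in the same region, had 37.0, 33.2 and 40.4 CPM in DMSO and 31.4, 29.5 and 30.6 CPM in NIBR-LTSi (-0.28 ± 0.07 in log2, adjusted p = 0.00861).

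Sp100, a nuclear-body protein that silences viral genomes, had 2.20, 1.11 and 1.65 CPM in DMSO and 0.619, 0.777 and 0.731 CPM in NIBR-LTSi. It fell 2.34-fold (-1.22 ± 0.30 in log2, adjusted p = 0.00654), and missed the threshold when DMSO replicate 1, the highest control, was left out (adjusted p = 0.0537). Of the 50-base windows of Sp100, 5.86% occur in other genes. It also shares 104 exon bases with n-R5s215 on the same strand, so its counts are uncertain there. Rnf213, a giant ubiquitin ligase with the widest gene model among the members (16888 bases), had 46.1, 48.7 and 72.2 CPM in DMSO and 72.2, 42.5 and 44.5 CPM in NIBR-LTSi. A single library was high in each group, and the groups overlapped (-0.08 ± 0.32 in log2, adjusted p = 0.871). The sign turned without DMSO replicate 3 (0.15) or NIBR-LTSi replicate 2 (0.05) or 3 (0.03).

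The rest of the interferon pathway was read from lists of 99 further genes, of which 66 were tested, 26 fell (39.4%) and 8 rose (12.1%), against 19.2% and 22.8% of all tested genes. Their median in log2 was -0.14, and the counts by list that follow are to be read against the same shares. Some of the 8 that rose passed the filter through the treated group, where they are high. Among the other receptors, JAK kinases and STATs, 4 of 10 fell and 1 rose. Il10rb, the second chain of the type III receptor, fell 1.10-fold (adjusted p = 0.0116; 0.0538 with library totals only). Jak2, the kinase of the interferon gamma receptor, fell 1.11-fold (adjusted p = 0.0172). Jak2 missed the threshold when any of 4 libraries was left out, namely DMSO replicates 1 (adjusted p = 0.0587) and 3 (0.0550) and NIBR-LTSi replicates 2 (0.0885) and 3 (0.0519), and under scaling by library totals (0.0632). In the other direction Ifngr1, the ligand-binding chain for interferon gamma, rose from 299 ± 9.18 to 414 ± 3.72 CPM (adjusted p = 1.00e-06).

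Of 13 tested genes of nucleic acid sensing and interferon induction, 7 fell and 1 rose. Ddx58, which encodes the RNA sensor RIG-I, had 31.7, 31.2 and 33.6 CPM in DMSO and 25.2, 25.2 and 25.3 CPM in NIBR-LTSi (-0.35 ± 0.06 in log2, adjusted p = 3.85e-04), close in size to Ifih1. Its adaptor gene Mavs fell 1.19-fold and the downstream kinase gene Tbk1 1.21-fold. Cgas, the sensor of cytosolic DNA, rose from 3.47 ± 0.262 to 5.54 ± 0.583 CPM (adjusted p = 0.00179). It shares 201 exon bases with Gm8093 on the opposite strand, where its counts are uncertain.

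Of the 9 genes listed as brakes on the response, 5 fell and 4 were not called. Samhd1, the dNTP hydrolase that limits retroviruses, fell from 149 ± 1.20 to 101 ± 0.741 CPM (-0.55 ± 0.04 in log2, adjusted p = 3.99e-07). The cytokine-signalling inhibitor Socs3 fell 1.38-fold and the repressor Irf2 1.19-fold. Trex1, which degrades cytosolic DNA, fell 1.19-fold (adjusted p = 0.0302). The Trex1 call was lost without DMSO replicate 1 (0.120), NIBR-LTSi replicate 1 (0.0649) or NIBR-LTSi replicate 2 (0.0721), with library totals only (0.0736) and in DESeq2 (0.110).

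Among 34 tested further interferon-stimulated genes, 10 fell (29.4%), 6 rose (17.6%) and 18 were not called, against 19.2% and 22.8% of all tested genes, so this list lay nearer to those shares than the members. The list median was -0.17 in log2, and some of the 6 that rose passed the filter through the treated group, where they are high. The largest changes were the fall of Oas1g, the rise of Ifit1bl2 and the fall of Cxcl11, a CXCR3 chemokine gene that RefSeq lists as a transcribed pseudogene in the reference strain. Cxcl11 had 3.48, 2.94 and 2.41 CPM in DMSO and 0.723, 0.614 and 0.804 CPM in NIBR-LTSi, 4.11-fold lower (-2.04 ± 0.24 in log2, adjusted p = 3.68e-05). Cxcl11 shares 1582 exon bases with Gm2673 on the opposite strand. Lgals9, which encodes galectin-9 and is abundant in this epithelium, fell from 579 ± 25.4 to 420 ± 5.95 CPM (-0.46 ± 0.04 in log2, adjusted p = 1.91e-06).

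**Figure D5:**
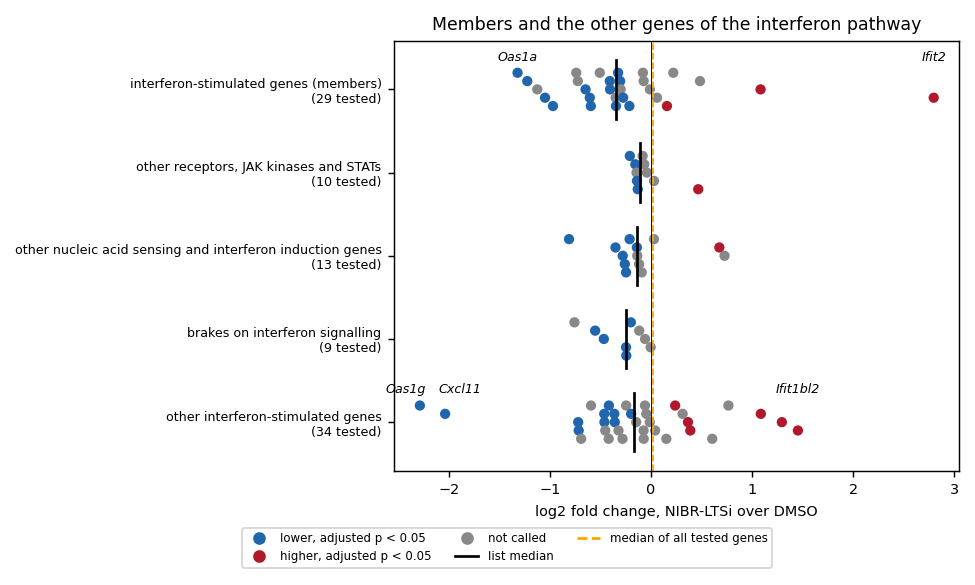
Log2 fold change (NIBR-LTSi over DMSO) of each tested gene, with the 29 members in the top row and the other pathway lists under them. Blue points fell, red points rose, grey points were not called, black bars are list medians and the dashed line is the median of all tested genes. The member median is -0.35 and the other lists' medians lie between -0.24 and -0.11.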

How the data were processed

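Per the labels' protocols, organoids were digested to single cells before RNA was purified, and 200 ng of total RNA entered a stranded messenger RNA library kit. The authors deposited whole-number read counts per gene, beside its symbol, Entrez number and width in bases. Per the submitters' processing notes the build was mm10 and edgeR was used. Which aligner, counter and strand setting were used is not stated there. Positions and promoters are 1-based and come from RefSeq GRCm38.p6, the same assembly as mm10. Exon overlaps and shared windows come from GENCODE M21.

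Counts were scaled with TMM factors, filtered with filterByExpr (12592 genes left) and tested with the edgeR quasi-likelihood F-test (version 4.0.16, R 4.3.3, robust, two-sided) on treatment alone, with Benjamini-Hochberg adjustment over all tested genes at 0.05. Standard errors were obtained as the size of the log2 change over the root of F. CPM values are TMM-normalised, and SD is over 3 libraries. The procedure was tested on simulated data in which far fewer genes changed than the 5287 called here. That test therefore does not show how the procedure performs when so many genes change. Libraries of a group differed by more than sampling noise (chi-square per degree of freedom 4.56 to 11.8).

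The members and lists were chosen with earlier results of these data known. All members may be named, and so may the 4 genes with the smallest p of each pathway list. Some genes of these lists enter the counts and are not reported here by name. Oas1b, Oas1c and Ifit3b were named by position or shared sequence, and the markers named and the members described were picked with their values seen. Alternatives were limma-voom (limma 3.58.1), DESeq2 (version 1.42.0), other scalings and filters, the replicate number as a block, and leaving out each library.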

Additional observations from a re-analysis of the deposited data

How the results depend on the processing

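The count of members that fell was 13 to 15 in all 14 alternatives, and the count that rose was 2 to 4, beside 14 and 3. The 14 genes that fell were called again in each alternative except Sp100 without DMSO replicate 1. The member median log2 fold change stayed between -0.38 and -0.30. Of the 29 tested members, 19 kept direction and call in every alternative in which they were tested, 2 lost their call somewhere (Sp100 and Ifi27l2b), 3 gained one (Xaf1, Oasl2 and Bst2) and 5 changed sign, all uncalled. When 1 library was left out, the log2 fold change ranged from -0.081 to 0.075 for Ifnlr1, -0.17 to 0.068 for Stat2, -0.17 to 0.33 for Usp18, -0.36 to 0.15 for Rnf213 and -0.014 to 0.45 for Ifit1. Usp18 was at -0.011 in limma-voom and Ifnlr1 at 0.034 with library totals only. The cause was not tested.

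Same-numbered libraries of the groups did not all deviate together (correlations 0.02, -0.16 and 0.51), and not every library correlated best with its own number. DMSO replicates 2 and 3 were at 0.46 and -0.45 with NIBR-LTSi replicate 1. The numbers were therefore not taken as pairs, and the source of these shared deviations was not tested. With the replicate block, 14 members fell and 4 rose, Bst2 being called (adjusted p = 0.0126) and the Trex1 call lost (0.0623), and 4945 genes were called in all, beside 5287. Depth limits the 9 members below the filter, each with at most 53 counts.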
